A study of Mus musculus with 6 samples.

Results

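The replication-dependent histone genes of the mouse were followed on 6 one-colour Agilent arrays. The samples are labelled as acinar cells of the pancreas, the cells that make digestive enzymes, although acinar markers were far lower in 1 group, as given below. Members were all genes of the clustered histone loci, taken by the older symbols Hist1h, Hist2h, Hist3h and Hist4h or the current symbols H1f1 to H1f6, H2ac, H2bc, H3c and H4c with a number. The reference lists 70 such genes, of which 50 had at least 1 probe, through 54 of the 56605 probes of the array. A test could be made for 43 of them, out of 27104 rows tested in all: 5 of H1, 12 of H2A, 11 of H2B, 6 of H3 and 9 of H4. By locus, 34 tested genes lie in the Hist1 cluster on chromosome 13, 6 in Hist2 on chromosome 3, 2 in Hist3 on chromosome 11 and 1 in Hist4 on chromosome 6. No probe was named for the other 20: H2ac6, H2ac8, H2ac14, H2ac18, H2ac24, H2bc8, H2bc9, H2bc11, H2bc12, H2bc13, H4bc24 (an H2B gene despite its symbol), H3c2, H3c6, H3c10, H3c14, H3c15, H4c1, H4c2, H4c6 and H4c18. The rule takes genes by name, so it also takes 3 pseudogenes and genes known mainly from the testis (H1f6, H2ac1 and H2bc1).

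The core histones H2A, H2B, H3 and H4 form the protein spool around which DNA is wound, and H1 binds the linker DNA between spools. Each is encoded by many clustered gene copies that are transcribed mainly in S phase, under NPAT and the other factors of the histone locus body. Their transcripts are mostly not polyadenylated and end in a stem-loop that the protein SLBP binds, so the level of these transcripts follows DNA synthesis closely in dividing cells, and separate genes outside the clusters (such as H3f3a, H2az1 and H1f0) supply variants throughout the cell cycle. Differentiated acinar cells divide rarely.

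Both groups came from C57BL/6 mice. In the 3 samples named KC, Ptf1aCre drives Cre recombinase in cells of the pancreatic lineage, where it activates an oncogenic allele. The 3 samples named KCS carry the same alleles together with Setdb1flox/flox, that is, loxP sites on each copy of Setdb1, the gene of an enzyme that methylates lysine 9 of histone H3. The question of the design is what loss of Setdb1 changes in cells labelled acinar that already carry the activated oncogene. No sample without the oncogenic allele was analysed here. The labels used here give neither age nor sex, do not say whether samples are separate animals, and do not say how complete recombination was. The p-values therefore measure only the spread between these samples, which may be technical. Setdb1 itself was at -0.91, -1.05 and -0.32 in KC and -0.28, -0.44 and -0.55 in KCS, in the log2 unit explained below, a difference of 0.33 ± 0.24 (SE, adjusted p = 0.27). Where its probe lies relative to the deleted exons is not given in the sources used here, so this value does not check the labels.

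The unit throughout is the log2 of the array's processed signal minus the 75th percentile of that array, so a level of 0 equals that percentile and differences (KCS minus KC) are log2 fold changes. Adjusted p-values are from limma over all 27104 rows, and a gene is said to have risen or fallen where that value is below 0.05. The groups differed across the whole array: each KC array had 26551 to 27237 probes well above background and each KCS array 35367 to 35921, and the 75th percentile was 61.2 to 68.6 scanner units in KC and 347 to 423 in KCS. No spot was saturated. Levels are set against a percentile that itself differs between the groups, which bears on every direction given here. Markers of the labelled cell type also differed. All 16 acinar markers fell, with a summed level of 37009 to 43888 in KC and 4.78 to 2372 in KCS relative to the 75th percentile, and 9, 14 and 16 of the 16 stayed well above background on KCS replicates 1, 2 and 3. Macrophage markers rose in 12 of 13 (summed level 67.4 to 90.6 in KC and 475 to 599 in KCS) and fibroblast markers in 12 of 12 (221 to 310.0 and 1434 to 1840). Endothelial markers rose in 7 of 8 (14.2 to 16.6 and 31.1 to 52.4) and ductal markers in 5 of 9 (382 to 417 and 677 to 957). Of 11 lymphocyte markers tested 5 rose and 3 fell (11.8 to 21.4 and 14.98 to 25.9), with Cd3g, Cd79b and Ms4a1 among those above background on none of the KC arrays. Of 5 erythroid markers tested 1 rose and 1 fell (116 to 442 and 356 to 394). These shifts accompany every value below, and their part in the histone results was not tested. In such bulk RNA, fewer cells of a type and less RNA per cell cannot be told apart.

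Among the arrays, KC replicate 2 stood apart for the histone genes. It was the lowest KC array for 30 of the 43 members (69.8%), against 30.9% of all rows. The difference between KC replicate 2 and the mean of the other KC arrays had a median of -0.47 over the members and -0.001 over all rows. It was -2.08 for H1, -0.85 for H4, -0.34 for H3, -0.32 for H2A and -0.03 for H2B, so H2B did not share it. KC replicate 2 was also the lowest KC array for 14 of 20 genes of G2 and mitosis (median difference -0.37) and for 19 of 39 S phase genes tested (-0.22). Cell type markers also differed among the KC arrays. KC replicate 2 was the lowest for 14 of 16 acinar markers (-0.19), 0 of 13 macrophage markers (0.38) and 1 of 12 fibroblast markers (0.35). KC replicate 3 was the lowest for 11 of 13 macrophage, 10 of 12 fibroblast and 5 of 5 erythroid markers. The differences of 0.38 and 0.35 are therefore taken against a mean that holds this lower array. The part of these markers in the histone values was not tested. The median SD of a member was 0.40 among KC samples and 0.18 among KCS samples, against 0.31 and 0.27 over all rows. For H1 the medians were 1.22 in KC and 0.16 in KCS, and for H4 they were 0.53 and 0.084. Counts are therefore also given without KC replicate 2. This array was picked out from the members' own values, so genes for which it was the lowest KC array had to move down without it. Results without it are not separate support for a fall.

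**Figure D1:**
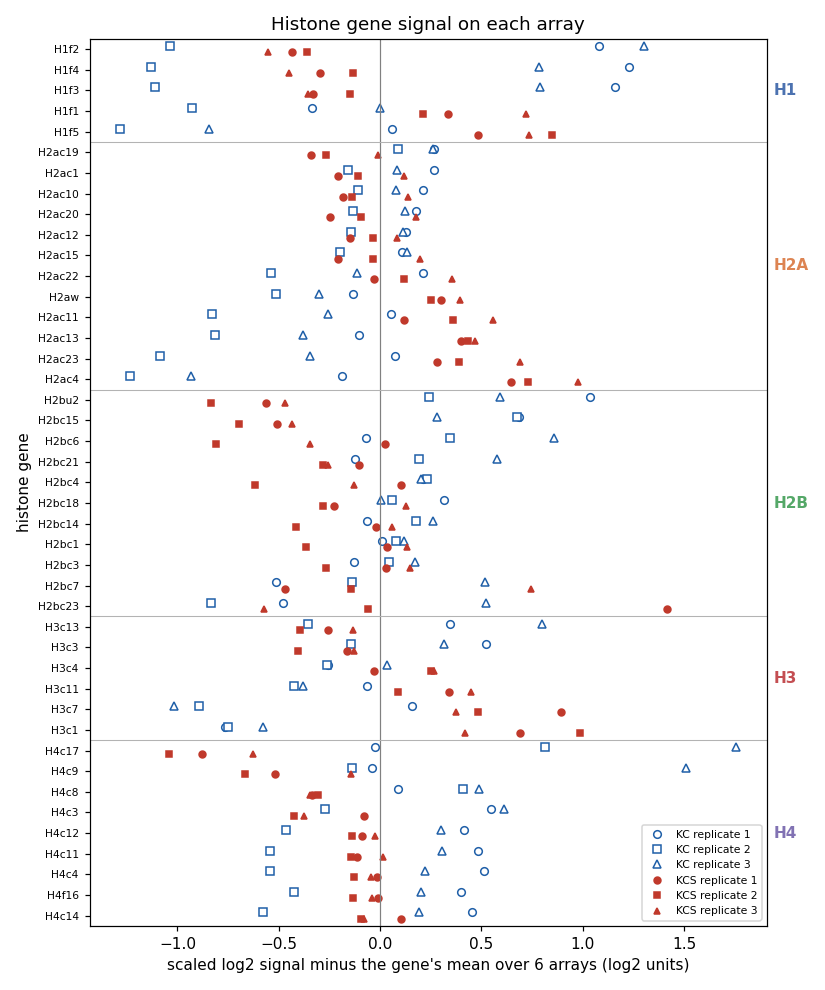
Signal of the 43 tested histone genes on each of the 6 arrays (horizontal axis: scaled log2 signal minus that gene's mean over the 6 arrays, in log2 units; open blue symbols KC, filled red symbols KCS; circle, square and triangle are replicates 1, 2 and 3). The open square, KC replicate 2, lies left of the other KC symbols for all 5 H1 and all 12 H2A genes but for only 2 of 11 H2B genes.

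The promoters of 4 members that changed and that represent H1, H2A, H2B and H4 are shown because neighbouring histone genes carry different sets of short elements while sharing 1 cluster. Sequences are the 250 bases before the annotated start, from RefSeq on GRCm38.p6, read 5′ to 3′ on the gene's strand. Capitals mark, on either strand, the octamer ATTTGCAT bound by OCT1, CCAAT, the TATA element TATAAA, and AAACACA, an element of H1 promoters; none of these overlap in the windows shown. The window of H1f5 is chr13:21780626-21780875 on the minus strand, that of H2ac4 chr13:23750838-23751087 on the plus strand, that of H2bc15 chr13:21753826-21754075 on the plus strand and that of H4c17 chr13:21811496-21811745 on the plus strand.
H1f5: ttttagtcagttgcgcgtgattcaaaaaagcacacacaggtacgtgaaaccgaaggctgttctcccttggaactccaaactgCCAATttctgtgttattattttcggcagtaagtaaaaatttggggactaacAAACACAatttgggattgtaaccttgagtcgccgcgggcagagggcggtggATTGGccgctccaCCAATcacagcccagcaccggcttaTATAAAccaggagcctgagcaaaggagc
H2ac4: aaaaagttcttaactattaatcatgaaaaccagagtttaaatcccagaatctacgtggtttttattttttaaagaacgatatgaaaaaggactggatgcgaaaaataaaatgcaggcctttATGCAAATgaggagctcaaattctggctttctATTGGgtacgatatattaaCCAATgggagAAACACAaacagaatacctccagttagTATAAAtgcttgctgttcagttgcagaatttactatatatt
H2bc15: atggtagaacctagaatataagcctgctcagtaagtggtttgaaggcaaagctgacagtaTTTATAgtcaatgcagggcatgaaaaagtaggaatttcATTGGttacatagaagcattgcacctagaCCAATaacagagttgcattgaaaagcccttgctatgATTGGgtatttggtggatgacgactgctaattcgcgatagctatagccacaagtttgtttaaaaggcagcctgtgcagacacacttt
H4c17: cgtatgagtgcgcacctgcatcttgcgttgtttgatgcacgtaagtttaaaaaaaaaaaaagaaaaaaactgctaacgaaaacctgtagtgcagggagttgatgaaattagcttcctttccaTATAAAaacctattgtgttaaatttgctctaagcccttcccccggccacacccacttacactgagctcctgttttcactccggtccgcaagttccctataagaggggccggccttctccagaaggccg
In H1f5 the TATAAA match begins 28 bases before the start, the CCAAT matches 168, 66 and 53 bases before it and the AAACACA match 117 bases before it. The H2ac4 window holds the octamer at 129, CCAAT at 97 and 78, AAACACA at 68 and TATAAA at 41. In H2bc15 there are CCAAT matches at 152, 123 and 87 and a TATAAA match at 190, the last on the strand opposite to the gene. H4c17 holds TATAAA at 128, on the gene's strand, and none of the others.

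Promoter windows were found for 62 of the 70 members (63 windows) and compared with 32851 windows of all genes. The octamer was in 7 of 18 H2A and 7 of 17 H2B windows, in none of the H1, H3 or H4 windows, and in 1.60% of all windows. CCAAT was in 6 of 6 H1, 18 of 18 H2A, 17 of 17 H2B, 8 of 10 H3 and 3 of 12 H4 windows, against 33.8% of all. TATAAA was in 4, 7, 8, 4 and 6 of those windows in the same order, against 12.4% of all. AAACACA was in 5 of 6 H1, 2 of 18 H2A and 2 of 17 H2B windows and in none of H3 or H4, against 6.25% of all. Elements differed between the classes, while genes with and without the octamer overlapped in their differences between KCS and KC. These ran from -0.13 to 1.57 for the 5 tested H2A genes with the octamer and from -0.41 to 0.91 for the 7 without it. For H2B they ran from -0.25 to -0.06 in 4 genes with it and from -1.25 to 0.52 in 4 without it. H2bc6 (-0.76) has a window of each kind, and no window was found for H2bc4 and H2bc21.

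Over all classes, 13 of the 43 histone genes changed (30.2%), against 60.3% of all rows. H1f1, H1f5, H2aw, H2ac4, H2ac13, H2ac23, H3c1, H3c7 and H3c11 rose, which is 20.9% of members against 25.9% of rows, although H1f1, H2ac13, H3c1, H3c7 and H3c11 turned to lower with normexp background correction, under which 80.0% of rows changed. H2bc15, H2bu2, H4c8 and H4c17 fell, which is 9.30% against 34.4%, although all 4 turned to higher when the arrays were scaled to spike-in controls. Groups did not overlap for 17 members (39.5%), against 68.2% of rows. Over the members the differences were small: their median was -0.13 and the median of their absolute size 0.52, against -0.19 and 1.02 over all rows, and 36 of 43 members (83.7%) stayed within 1 log2 unit, against 49.1% of rows. These shares describe the list and were not tested. H1f1, H3c1 and H3c11 were well above background on the KCS arrays alone, which let them be tested and favours a call of higher.

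**Figure D2:**
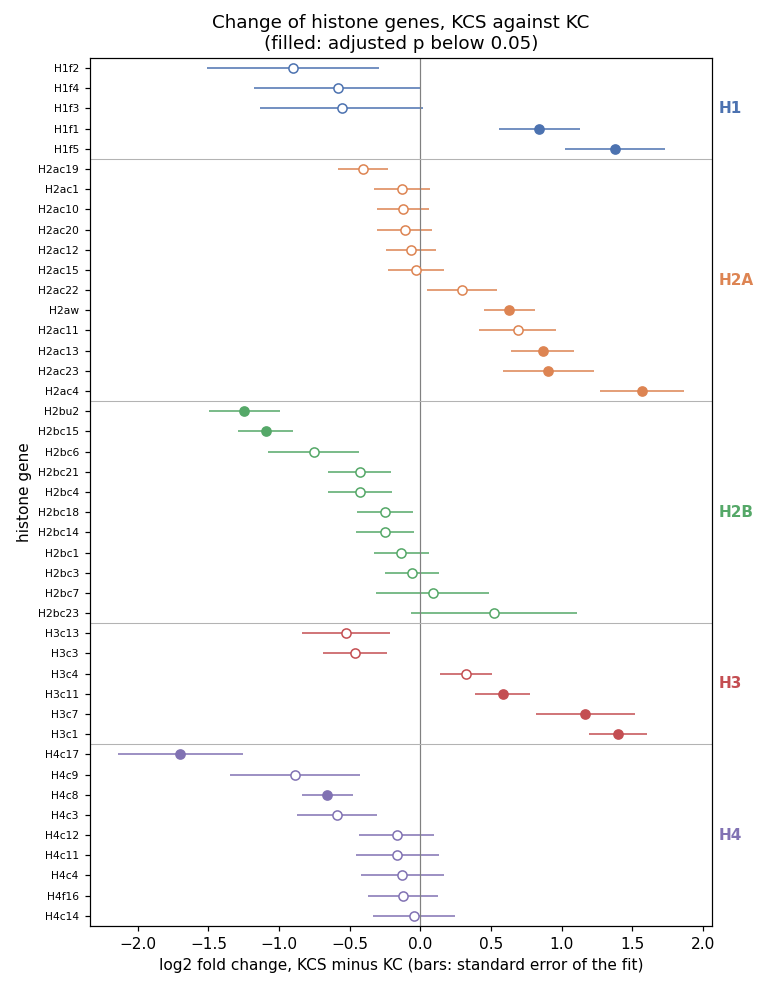
Difference of each tested histone gene, KCS minus KC (horizontal axis, log2 fold change; bars are the standard error of the fit from 3 samples per group; filled points have an adjusted p below 0.05). The filled points of H1, H2A and H3 lie right of 0 and those of H2B and H4 left of it with 75th percentile scaling; with spike-in scaling all 43 lie right of 0.

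The calls rest in part on single arrays. Without KC replicate 2, H1f5, H2ac4, H2ac13 and H3c1 rose (9.30% of members, against 24.3% of rows, and 56.3% of rows changed either way), and 10 members fell (23.3%, against 31.9%): H1f2, H1f3, H1f4, H2bc15, H2bu2, H3c3, H3c13, H4c3, H4c8 and H4c17. Leaving out KC replicate 1 gave 9 higher and 5 lower (56.4% of all rows changed), and leaving out KC replicate 3 gave 4 and 3 (53.9% of rows). Without KCS replicate 1 there were 4 and 3 (54.1% of rows), without KCS replicate 2 there were 3 and 2 (49.4%) and without KCS replicate 3 there were 5 and 3 (55.8%). H2ac4, H2ac13, H2bc15, H2bu2 and H3c1 passed the test with each array left out in turn, although H3c1 was well above background on no KC array. The calls of H1f1, H2ac23, H2aw and H3c11 ended in 5 of the 6 cases, those of H3c7 and H4c8 in 4, that of H1f5 in 2 (without KC replicate 3 or KCS replicate 2) and that of H4c17 in 1 (without KCS replicate 2). The arrays lay on a pair of slides, the first with replicate 1 of each group and the second with replicates 2 and 3. With slide as a block 7 members rose and 4 fell, and 63.6% of rows changed. On the second slide alone 7 rose and 5 fell, where 51.8% of rows changed, and the median difference was 0.015 there and -0.31 on the first slide.

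The linker histones were the class most marked by KC replicate 2. H1f5 (H1.5, a main H1 of dividing cells) was at 0.63, -0.71 and -0.27 in KC replicates 1 to 3 and at 1.05, 1.42 and 1.31 in KCS. All KCS samples lay above all KC samples, and H1f5 rose by 1.38 ± 0.36 (SE), 2.60-fold (adjusted p = 0.015), with 0.42 on the first slide and 1.86 on the second. With KC replicate 3 or KCS replicate 2 left out the adjusted p was at most 0.053.

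H1f2, H1f3 and H1f4, which encode the other common H1 proteins of dividing cells, shared another profile. H1f4 was at 4.34, 1.98 and 3.89 in KC and 2.81, 2.97 and 2.66 in KCS. H1f2 was at 2.03, -0.09 and 2.25 in KC and 0.51, 0.58 and 0.39 in KCS, and H1f3 at 0.67, -1.60 and 0.30 and at -0.82, -0.64 and -0.84. For each of them KC replicates 1 and 3 lay above every KCS sample and KC replicate 2 below every one. The differences over all arrays were -0.90 ± 0.61 for H1f2, -0.59 ± 0.59 for H1f4 and -0.56 ± 0.58 for H1f3, with adjusted p from 0.24 to 0.43. Without KC replicate 2 they were -1.64, -1.30 and -1.25, with adjusted p of 0.0022, 0.0071 and 0.0060. That array was picked out for its low values in these same genes, so leaving it out had to lower these differences. The p-values without it are therefore not separate support for a fall. H1f1, an H1 gene of low and tissue-restricted expression, was at -3.71, -4.30 and -3.37 in KC and -3.04, -3.16 and -2.66 in KCS. It was well above background on the KCS arrays alone, which let it be tested and favours a call of higher. It rose at least 1.33-fold (adjusted p = 0.042, and up to 0.115 with 1 array left out) but was at -1.04 with normexp. The testis gene H1f6 was well above background on no KC array and on 2 KCS arrays, so it was not tested.

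H2A held the largest rise among the members and also the flattest group. H2ac4 (Hist1h2ab) was at 2.89, 1.84 and 2.14 in KC and 3.72, 3.81 and 4.05 in KCS. The groups did not overlap, and it rose by 1.57 ± 0.30, 2.97-fold (adjusted p = 0.0044), with 0.83 on the first slide and 1.94 on the second. Its promoter, printed above, is 1 of those that hold the octamer.

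H2ac13 was at -1.93, -2.63 and -2.20 in KC and -1.42, -1.39 and -1.35 in KCS, a rise of 0.87 ± 0.22 (adjusted p = 0.015). Its KCS samples lay within a narrow band above all KC samples, and the within-slide differences were 0.51 and 1.05. H2ac23 was at 5.60, 4.44 and 5.18 in KC and 5.81, 5.91 and 6.22 in KCS and rose by 0.91 ± 0.32 (adjusted p = 0.047). H2aw, the H2A gene of the Hist3 cluster, was at 3.55, 3.17 and 3.38 in KC and 3.98, 3.93 and 4.08 in KCS and rose by 0.63 ± 0.18 (adjusted p = 0.021). Both groups of values were separate for each of these genes, but on the first slide H2ac23 differed by 0.21 and H2aw by 0.44, against 1.26 and 0.73 on the second. With slide as a block the adjusted p of H2ac23 was 0.054, and with 1 array left out it reached 0.12 for H2ac23 and 0.063 for H2aw.

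The other H2A genes did not pass the test. H2ac11 differed by 0.69 ± 0.27 (adjusted p = 0.067) with separate groups, and H2ac22 by 0.30 (adjusted p = 0.33). H2ac1, H2ac10, H2ac12, H2ac15, H2ac19 and H2ac20 had nearly 1 profile: after each was centred on its own mean, no array separated any of them by more than 0.284, and Pearson's r over the 6 arrays was 0.553 to 0.984 in the 15 pairs. This group was picked after its values were seen, and the arrays are shared by all pairs. H2ac12 was at 6.93, 6.65 and 6.91 in KC and 6.65, 6.76 and 6.88 in KCS, and the groups overlapped for it and for the others except H2ac19. H2ac19 was at 6.78, 6.60 and 6.78 in KC and 6.18, 6.25 and 6.51 in KCS, with every KCS sample below every KC sample. Their differences ran from -0.41 for H2ac19 (adjusted p = 0.087) to -0.03 for H2ac15 (adjusted p = 0.91). With quantile normalization, under which 58.4% of rows changed, H2ac1, H2ac10, H2ac12, H2ac15 and H2ac20 instead rose, by 0.78 to 0.97. Copies of H2A are nearly identical in their coding sequence, so probes named for different genes may read the same transcripts, and the probe sequences were not used here. H2ac7, H2ac21 and the pseudogene H2af-ps2 were not well above background on any array.

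The differences of all H2B genes except H2bc7 and H2bc23 were below 0, but with spike-in scaling all 11 were above 0, with median centring 6 were and with normexp 4. H2bc15 (Hist1h2bn) was at 3.54, 3.53 and 3.13 in KC and 2.35, 2.16 and 2.42 in KCS. It fell by 1.09 ± 0.19, 2.13-fold (adjusted p = 0.0034), with -1.19 on the first slide and -1.04 on the second, so both slides gave nearly the same difference. H2bu2 (Hist3h2ba), like H2aw a gene of the Hist3 cluster, was at -1.19, -1.99 and -1.64 in KC and -2.80, -3.07 and -2.70 in KCS. It fell by 1.25 ± 0.25 (adjusted p = 0.0057). Every KCS sample was below every KC sample for both genes. With spike-in scaling both turned to higher, by 1.80 and 1.65.

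None of the other H2B genes passed the test through the probe that stands for the gene. H2bc6 differed by -0.76 ± 0.32 (adjusted p = 0.083), H2bc4 and H2bc21 by -0.43 each and H2bc14 and H2bc18 by -0.25 each. H2bc4 was steady in KC, at 5.43, 5.45 and 5.42, and lower and more scattered in KCS, at 5.32, 4.60 and 5.09. H2bc1, the testis H2B gene, differed by -0.13, H2bc3 by -0.06, H2bc7 by 0.09 and H2bc23 by 0.52, the last with 1 of 3 KC arrays above background. The 2 probes of H2bc21 differed by -0.43 and -0.42. Those of H2bc3 did not match: the dimmer probe gave -0.63, with an adjusted p of 0.046 when every probe was tested on its own, beside the -0.06 of the brighter 1 that stands for the gene. H2bc22 was above background on 1 KCS array only and the pseudogene H2bu1-ps on none.

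H2A and H2B genes often sit head to head and share the stretch between them. The reference holds 14 pairs next to each other in gene order, whose strands were not checked. Both genes were tested in 5 of these, and the H2A difference was the higher in 5 of 5. H2ac1, H2ac15 and H2ac20 belong to the group of nearly 1 profile given above, so the 5 pairs may not be separate observations. H2ac4 differed by 1.57 and its neighbour H2bc3 by -0.06, H2ac15 by -0.03 and H2bc15 by -1.09, and H2ac23 by 0.91 and H2bc23 by 0.52. The other two pairs were closer, with -0.11 for H2ac20 and -0.43 for H2bc21, and -0.13 for both H2ac1 and H2bc1, where the gap was 0.005. The dimmer probe of H2bc3 gave -0.63, and the gap between neighbours was not tested.

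The H3 genes of the clusters encode H3.1 or H3.2, which the CAF-1 complex places on newly made DNA. The 3 that rose were all dim in KC. Of them, H3c1 and H3c11 were well above background on the KCS arrays alone, which let them be tested and favours a call of higher. H3c7 was at -2.69, -3.74 and -3.86 in KC, where it was above background on 1 array, and at -1.95, -2.36 and -2.47 in KCS, a rise of 1.17 ± 0.35 (adjusted p = 0.027). H3c1 was at -5.41, -5.40 and -5.23 in KC and -3.95, -3.66 and -4.23 in KCS (adjusted p = 0.0015). It was above background on none of the KC arrays and its bound there was not below the KCS signal, so no size of the difference is given. H3c11 was at -3.60, -3.97 and -3.92 in KC, above background on none, and at -3.20, -3.45 and -3.09 in KCS, at least 1.11-fold higher (adjusted p = 0.039). With normexp background correction all 3 turned to lower, by -0.63 for H3c7, -1.26 for H3c1 and -1.13 for H3c11. The median difference of H3 was 0.45 with fitted values and 0.08 with H3c1 and H3c11 at their bounds.

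Brighter H3 genes did not pass. H3c4 was at 4.79, 4.79 and 5.08 in KC and 5.02, 5.30 and 5.31 in KCS (0.32 ± 0.19, adjusted p = 0.17). H3c3 differed by -0.46 (adjusted p = 0.12) and H3c13 by -0.53 (adjusted p = 0.19). Both fell once KC replicate 2 was left out, but it was their lowest KC array, so leaving it out had to lower their differences. H3c8 was above background on 2 KCS arrays and on no KC array and was not tested. RefSeq lists the symbol of another member among the synonyms of all 12 H3 genes, all 13 H4 genes, 7 of 19 H2B genes and none of H1 or H2A. These shared names do not tell which copies a probe reads. Probe sequences were not used, so values of single genes, in H2A and H2B as in H3 and H4, are uncertain as to the copy they read.

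The H4 genes encode the same or nearly the same protein, and all 9 differences were below 0, but 9 were above 0 with spike-in scaling, 5 with median centring, 5 with normexp and 3 with quantile normalization. H4c17 (Hist1h4m) was at -2.53, -1.69 and -0.75 in KC and -3.38, -3.55 and -3.13 in KCS. It fell by 1.70 ± 0.44, 3.25-fold, the widest difference among the members (adjusted p = 0.016), with -0.86 on the first slide and -2.12 on the second. H4c8 was at -2.25, -1.93 and -1.85 in KC and -2.68, -2.65 and -2.69 in KCS and fell by 0.66 ± 0.18 (adjusted p = 0.019). In both genes every KCS sample was below every KC sample, but H4c8 did not pass with median centring (-0.30, adjusted p = 0.18) or quantile normalization (-0.42, adjusted p = 0.079), and with spike-in scaling they turned to higher, by 1.198 and 2.24. H4c9 differed by -0.89 ± 0.46 (adjusted p = 0.14) with separate groups, and H4c3 by -0.59 (adjusted p = 0.12).

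The other 5 H4 genes moved as 1 profile across the arrays, whatever their brightness. H4c4, read by 10 spots of its probe, was at 6.53, 5.47 and 6.23 in KC and 6.00, 5.89 and 5.97 in KCS. Its KC samples lay on both sides of tightly grouped KCS samples, with KC replicate 2 lowest. H4c11, H4c12, H4c14 and H4f16 followed it, with Pearson's r of 0.941 to 0.997 over 6 arrays in 10 pairs and no gap above 0.220 between centred profiles. They were grouped after their values were seen, and their probes may read the same transcripts. Differences in these 5 genes ran from -0.17 to -0.05, with adjusted p from 0.61 to 0.90. Without KC replicate 2 they were -0.48 for H4c11, -0.44 for H4c12, -0.43 for H4c4, -0.36 for H4f16 and -0.35 for H4c14, with adjusted p from 0.075 to 0.18.

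By class, then, H1 had 2 genes that rose and 0 that fell of 5 (median difference -0.56), H2A 4 and 0 of 12 (0.13), H2B 0 and 2 of 11 (-0.25), H3 3 and 0 of 6 (0.45) and H4 0 and 2 of 9 (-0.17). Over all rows 25.9% rose and 34.4% fell. The classes were not tested against each other. Without KC replicate 2 the medians were -1.25 for H1 (1 rose and 3 fell), -0.02 for H2A and -0.48 for H4, and without KC replicate 1 or KC replicate 3 that of H1 was -0.12 or -0.30. On the first slide H1 had a median of -1.49, H2A of -0.26, H2B of 0.03 and H4 of -0.50, and on the second slide these were -0.09, 0.34, -0.40 and -0.002. The median of H3 was -0.46, with 0 genes that rose, when probes had to be well above background on all arrays, and -0.44 with normexp. Scaling moved all of them: the median of the members was 0.23 with median centring, 0.20 with quantile normalization and 2.77 with spike-in scaling, where the median of all rows was 0.16, -0.01 and 2.70. Above 0 with median centring were 11 of 12 H2A genes, against 6 with the 75th percentile. With spike-in scaling all 43 members rose, and 90.0% of all rows changed.

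**Figure D3:**
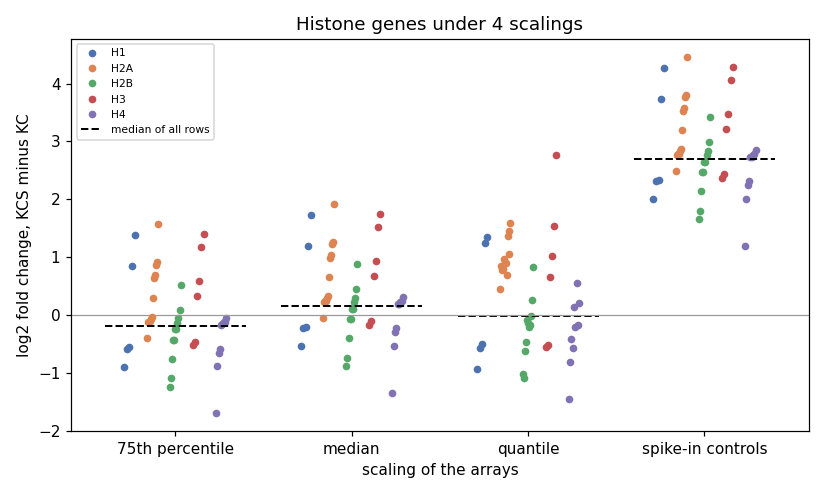
Differences of the 43 tested histone genes under 4 scalings of the arrays (vertical axis, log2 fold change, KCS minus KC; 1 point per gene, coloured by class; dashed line, median of all 27104 rows). The dashed line goes from -0.19 with the 75th percentile to 2.70 with spike-in controls, where all 43 points lie above 0. With quantile normalization the line is at -0.01, while all 12 H2A points lie above 0.

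Of 24 factors that activate histone genes or process their transcripts, 9 rose and 2 fell (median 0.49), where 25.9% of all rows rose and 34.4% fell. Slbp, which binds the stem-loop, was at -3.25, -3.03 and -2.36 in KC, above background on 1 array, and at -1.16, -0.93 and -0.99 in KCS, a rise of 1.86 ± 0.27 (adjusted p = 0.0014). Npat, the activator of the histone loci, rose by 1.23 ± 0.21 (adjusted p = 0.0027) and Casp8ap2 (FLASH), which acts in cleavage of the transcripts, by 1.49 ± 0.21 (adjusted p = 0.0013), although with normexp the differences were -0.12 for Npat, 0.16 for Casp8ap2 and 0.06 for Slbp. Eri1, an exonuclease of the stem-loop, rose by 1.31 ± 0.25 and Lsm10, a subunit of the U7 particle, by 0.96 ± 0.20. Hinfp, an activator of H4 genes, fell by 0.93 ± 0.24 (adjusted p = 0.015) but was at 1.96 with spike-in scaling. Lsm11 (0.49, adjusted p = 0.22) and Zfp473 (0.52, adjusted p = 0.18, above background on no KC array) did not pass. Dimmer probes gave 1.16 for Slbp and 0.87 for Casp8ap2, both smaller, and 0.56 for Lsm11, which was larger.

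Of 39 S phase genes tested, mostly of DNA replication, 26 rose and 2 fell (median 0.95). These are 66.7% and 5.13% of the list, where 25.9% of all rows rose and 34.4% fell. Among them, Mcm3 rose by 3.66 ± 0.20, Mcm4 by 2.91, Mcm6 by 2.34 and Rrm1 by 2.29, the first 3 encoding parts of the replicative helicase and the last a subunit of ribonucleotide reductase. Pcna, the sliding clamp, rose by 1.11 ± 0.18 (adjusted p = 0.0021) and Ccne1 by 0.86 (adjusted p = 0.021), while Ccna2 differed by 0.75 (adjusted p = 0.076) and Ccne2 was not tested. Dimmer probes gave 2.69 and 2.94 for Mcm3 and 1.68 for Mcm6, all smaller, and 0.996 for Ccna2, which was larger. Genes of G2 and mitosis rose in 13 of 20 (65.0%, against 25.9% of all rows) and fell in none (median 0.94). Their median was 0.21 on the first slide, 1.33 on the second and 0.37 with normexp. Of them 8 rose without KC replicate 2, where 24.3% of all rows rose. Without either KCS replicate 2 or 3, 8 rose, where 49.4% and 55.8% of all rows changed either way. When probes had to be well above background on all arrays 7 rose, and the share of all rows there was not worked out. Cdk1 rose by 1.84 and Aurkb by 1.76, and Bub1b and Bub1, above background on no KC array, rose at least 5.04-fold and 3.02-fold, but with normexp Bub1b was at 0.09, Bub1 at -0.27, Aurkb at 0.16 and Cdk1 at 0.52. Mki67, by contrast, was at 2.56, 1.68 and 2.08 in KC and 2.18, 2.35 and 2.74 in KCS, with overlapping groups (0.32 ± 0.28, adjusted p = 0.37). Neither list was tested against the histone list, and the part of the marker shifts given above was not tested.

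Of 25 histone chaperones 12 rose and 3 fell (median 0.40). Asf1b, which hands H3 and H4 to assembly factors, was at -0.58, -1.24 and -0.97 in KC and 1.14, 1.21 and 1.43 in KCS, a rise of 2.19 ± 0.23. Chaf1a and Chaf1b, subunits of CAF-1, rose by 1.89 ± 0.20 and 1.25, and Nasp, a carrier of soluble H3 and H4, by 0.62 (adjusted p = 0.022). Mcm2, which also binds H3 and H4 at the fork, rose by 1.45, and Ipo4, an importin that carries them, fell by 1.35 but was at 1.55 with spike-in scaling. Of 11 replication-independent variants tested 4 rose and 1 fell (median 0.28), so 45.5% changed, against 60.3% of all rows. H1f10 rose at least 2.17-fold but was at -0.75 with normexp, Macroh2a1 rose by 1.41 and Cenpa, the centromeric H3, by 1.71. H3f3a, a source of H3.3, was at 5.06, 5.28 and 4.84 in KC and 5.83, 5.85 and 5.88 in KCS, a rise of 0.79 ± 0.18 (adjusted p = 0.0096), while H3f3b differed by 0.36 (adjusted p = 0.099). H1f0, the linker histone of resting and differentiated cells, was at -0.57, -0.32 and 0.09 in KC and -1.87, -1.26 and -1.63 in KCS and fell by 1.32 ± 0.26 (adjusted p = 0.0048), though it was at 1.58 with spike-in scaling. H2az1 (0.28, adjusted p = 0.29) and H2ax (-0.01, adjusted p = 0.97) did not pass.

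**Figure D4:**
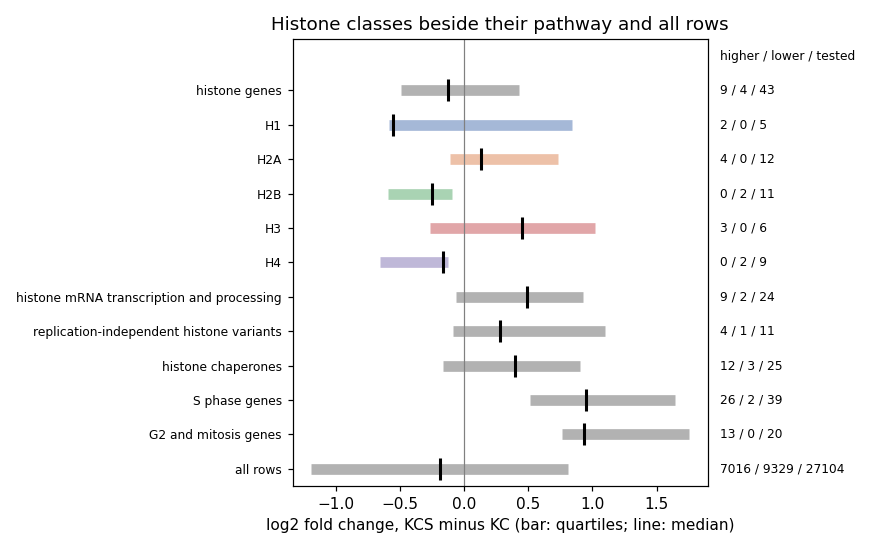
Differences of the histone genes, their 5 classes, the accompanying lists and all rows (horizontal axis, log2 fold change, KCS minus KC, with 75th percentile scaling; bar, lower to upper quartile over genes; line, median; counts of genes higher, lower and tested at right). The medians of the S phase list (0.95) and the G2 and mitosis list (0.94) lie right of the histone median (-0.13), a gap that was not tested, and with spike-in scaling the histone median was 2.77.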

How the data were processed

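Total RNA of 3 KC and 3 KCS samples was amplified by a whole-transcriptome method before Cy3 labelling, per the labels' protocols, which do not state how transcripts without a poly(A) tail were primed. Agilent Feature Extraction 12.0.3.1 extracted the spots, per the file headers, and the deposited processed signal is an intensity already corrected for background. The deposited value table holds log2 values, which matched these signals scaled as below and centred per probe (r of at least 0.999999). Its column medians were -0.01, 0.05 and 0.10 for KC and -0.05, -0.03 and -0.04 for KCS.

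The value used was log2 of the processed signal minus the array's 75th percentile. Feature outlier spots were dropped, spots of a probe averaged, probes well above background on at least 3 arrays kept, and the brightest probe stood for a gene. Probes were named by accession through RefSeq (GRCm38.p6): 33767 of 56605 had a symbol. Array files name another build, so only promoter windows carry coordinates. KCS was compared with KC by limma 3.58.1 (lmFit, eBayes, 2-sided, Benjamini-Hochberg) in R 4.3.3. Summaries were made in Python 3.11.15 with pandas 2.3.3 and numpy 2.4.6, and figures with matplotlib 3.10.9. Where no array of a group had a probe well above background, the fold is a bound: the brighter mean against a floor that is, on each dim array, either the weakest signal still well above background or the probe's own, whichever is larger. Genes well above background on the KCS arrays alone were kept through the group where they were higher, which favours a call of higher. Among the named genes that rose these were H1f1, H3c1, H3c11, H1f10, Bub1 and Bub1b. The steps were tested on simulated data. The number of arrays limits the precision.

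The members, the accompanying lists and the alternatives were chosen with earlier results of these data known. Named are every member, the 4 lowest p-values of each of the 5 pathway lists, and a fixed set of factors, variants and cell cycle genes whatever their result. For marker lists only counts and summed levels are given.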

Additional observations from a re-analysis of the deposited data

How the results depend on the processing

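With all arrays 9 histone genes rose and 4 fell, with a median difference of -0.13. Leaving out 1 array at a time gave 3 to 9 higher and 2 to 10 lower and medians of -0.24 to -0.05. At a threshold of 0.01, 2 rose and 2 fell. Without the filter on dim probes 10 fell, but that setting adds 7 genes whose probes failed the filter. None of those 7 was well above background on any KC array. For these settings the share of all rows called was not worked out. Median centring gave a median of 0.23, and quantile normalization 17 higher and a median of 0.20 (58.4% of all rows changed). Spike-in scaling gave 43 higher, 0 lower and a median of 2.77 (90.0% of rows), and normexp 15 higher and 15 lower (80.0% of rows). The cause of these changes was not tested. The normexp correction planned on mean signals was not run, and median signals were used, a choice made after seeing the data.

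Deviations of same-numbered samples of the groups had correlations of 0.33, 0.043 and 0.14, and those of other pairs -0.27 to 0.18. Whether the numbers pair the samples cannot be told from these, and replicate 1 of each group also shares a slide. With the replicate number as a block 7 rose and 4 fell, and the share of all rows called there was not worked out.

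In all, 14 of the 43 members turned sign with median centring, 9 with quantile normalization, 24 with normexp and 29 with spike-in scaling. Those that passed the test before or after turning were, with quantile normalization, H2ac1 (0.84), H2ac10 (0.78), H2ac12 (0.97), H2ac15 (0.89) and H2ac20 (0.80). With normexp they were, other named genes included, H1f1 (-1.04), H2ac1 (0.56), H2ac10 (0.58), H2ac12 (0.66), H2ac13 (-0.27), H2ac15 (0.67), H2ac19 (0.31), H2ac20 (0.60), H2bc1 (0.41), H2bc3 (0.55), H2bc7 (-0.57), H2bc23 (-0.83), H3c1 (-1.26), H3c7 (-0.63), H3c11 (-1.13), Npat (-0.12), H1f10 (-0.75), Bub1 (-0.27) and Zfp473 (-1.02). With spike-in scaling every lower difference of a member turned, and those of 4 other genes, to 1.995 for H1f2, 2.34 for H1f3, 2.31 for H1f4, 2.77 for H2ac1, 2.77 for H2ac10, 2.83 for H2ac12, 2.87 for H2ac15, 2.49 for H2ac19, 2.79 for H2ac20, 2.76 for H2bc1, 2.84 for H2bc3, 2.47 for H2bc4, 2.14 for H2bc6, 2.65 for H2bc14, 1.80 for H2bc15, 2.64 for H2bc18, 2.47 for H2bc21, 1.65 for H2bu2, 2.43 for H3c3, 2.37 for H3c13, 2.31 for H4c3, 2.77 for H4c4, 2.24 for H4c8, 2.01 for H4c9, 2.73 for H4c11, 2.73 for H4c12, 2.85 for H4c14, 1.198 for H4c17, 2.77 for H4f16, 1.58 for H1f0, 1.55 for Ipo4, 1.96 for Hinfp and 2.88 for H2ax.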
